A study of Mus musculus with 8 samples.

Results

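Genes induced by interferons and genes of the mouse major histocompatibility complex (H2) were read across gastrocnemius (GAS) muscles that had received an adeno-associated virus (AAV) coding for a short hairpin RNA. They were taken by name: every gene symbol in the deposited 3-week table starting with Ifi followed by a digit or by t, Oas, Gbp, Irf, Isg, Irgm, Iigp or H2-. This gave 110 genes measured by 103 of the 22206 probe sets of the array. The interferon genes numbered 67 on 64 probe sets and the H2 genes 43 on 39 probe sets, since 7 probe sets name a pair of members each, such as Gbp10/Gbp6 and H2-D1/H2-L, whose signals cannot be told apart. The rule itself uses names alone, although it was written with earlier results of these data known.

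All 8 muscles came from male C57/Bl6j mice aged 14 weeks and were taken 3 weeks after injection. The scrmb group (4 muscles) had received AAV sh-RNA scrmb, a hairpin with a scrambled sequence. The MYTHO group (4 muscles, called MYTHO-KD below) had received AAV sh-RNA MYTHO, directed against D230025D16Rik, the gene of the autophagy-related protein MYTHO. The column names tie each MYTHO-KD muscle to the scrmb muscle in the other leg of the same animal, and these animals are called A to D. Virus of serotype 1 was injected into the muscle and the hairpin was driven by the U6 promoter, which is active in most cell types. Both groups therefore carried virus and a hairpin, and no uninjected muscle was analysed here, so an effect of AAV itself cannot be read from these arrays. Contralateral muscles also share any interferon that circulated in the animal.

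Cells that sense viral nucleic acid release type I interferons, and lymphocytes release interferon gamma. Their receptors act through JAK kinases and STAT factors, which bind short promoter elements and switch on a shared set of defence genes. MHC class I molecules, which present peptides from inside the cell to CD8 T cells, are raised by the same signals through NLRC5, whereas class II molecules are made mainly by antigen-presenting cells and depend on CIITA. Resting muscle fibres make little MHC class I, and its appearance on fibres is a known feature of inflammatory myopathy.

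The interferon-stimulated response element (ISRE) was searched as GAAANNGAAA, and the gamma-activated site (GAS element, not the muscle) as TTCNNNGAA, both on both strands, where an ISRE and a GAS element may overlap. The searched window held 300 bases, 250 before and 50 after the start site, from RefSeq (GRCm38.p6, the mm10 assembly). A promoter was listed for 81 of the 110 genes, 50 interferon and 31 H2. The ISRE letters occurred in 22 of 50 interferon promoters (44.0%) and in 2 of 31 H2 promoters (6.45%), against 3.99% of 27025 promoters of all genes. The GAS element letters occurred in 28.0% of interferon, 9.68% of H2 and 9.55% of all promoters. By role, an ISRE was found in 5 of 6 IFIT, 7 of 8 GBP and IRG, and 4 of 8 OAS promoters, but in 2 of 7 IFITM and 1 of 11 IRF promoters. A match describes the letters only, and a missing match says nothing of the factor.

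Matches of members described below, chosen for the differences of these genes or their fame as interferon targets, are printed together with the only H2 matches, 5′ to 3′ on the strand of the gene, with the match in capitals. A match on the opposite strand reads TTTCNNTTTC.
Ifitm2: caacagGAAAAGGAAAttgcta
Ifitm3, at the start site: attcagGAAAAGGAAActtctg
Ifitm3, after the start site: ttctgaGAAACCGAAActgccg
Irgm2: ggaactGAAACTGAAAgctgtt
Isg15: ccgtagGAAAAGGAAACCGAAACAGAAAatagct
Ifit3, far: ggtaagTTTCACTTTCctcttc
Ifit3, near: agtctgTTTCAGTTTCtacttt
H2-T22: gcttagTTTCACTTTCgaatcc
H2-T23: tactgcTTTCTCTTTCataaag

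The letters printed for Ifitm2, the match with 6 bases on either side, lie at chr7:140955992-140956013 on the minus strand, and the match begins 46 bases before the start site. Those of Ifitm3 lie at chr7:141010727-141010748 and chr7:141010710-141010731 on the minus strand, with matches that begin at bases 3 and 20 of the transcript. The first match holds the same 10 letters as that of Ifitm2, GAAAAGGAAA. The Irgm2 letters are at chr11:58214907-58214928 (plus strand), with a match that begins 64 bases before the start. Isg15 holds 3 overlapping copies within chr4:156200869-156200902 (minus strand). The Ifit3 pair lies at chr19:34583367-34583388 and chr19:34583401-34583422 (plus strand), and the neighbouring Ifit3b carries identical letters. H2-T22 and H2-T23 had theirs at chr17:36042918-36042939 and chr17:36032810-36032831 (minus strand), with matches that begin 191 and 124 bases before the start.

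Signals are log2 values after the normalization of the authors, and a log2 fold change is the MYTHO-KD mean minus the scrmb mean, with its standard error (SE). Each probe set was tested with limma over all 22206 probe sets and adjusted by Benjamini-Hochberg. The targeted gene was lower in every knockdown muscle. D230025D16Rik read 11.35, 11.31, 10.78 and 11.05 in scrmb A to D and 8.16, 8.20, 8.80 and 8.08 in MYTHO-KD A to D. The log2 fold change was -2.81 (SE 0.21, limma adjusted p = 0.00044, and 0.016 in the limma fit with the animal as a block), or 14.2% of the scrmb level. An exact two-sided permutation test that ignored the pairing of legs gave p = 0.0286, the smallest that 4 against 4 allows.

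No interferon or H2 gene passed an adjusted p of 0.05. The lowest values were 0.235 for H2-M10.5 and 0.266 for Ifitm2, where 6 of all 22206 probe sets (0.027%) passed. At an unadjusted p under 0.05, 5 of 64 interferon probe sets were higher in MYTHO-KD and 0 were lower. In the H2 class 2 of 39 were higher and 1 was lower. Over the whole array 4.81% of probe sets were higher and 7.58% lower at that threshold, beside 7.81% and 0% of interferon and 5.13% and 2.56% of H2 probe sets. In no member did all 4 MYTHO-KD muscles lie above all 4 scrmb muscles (2.59% of all probe sets did), and in 2, Irf2 and H2-M10.5, all lay below (3.87% of all). None reached the 2-fold change with p under 0.05 that the study used as its threshold. With the animal as a block, 6 interferon probe sets were higher and 1 lower at unadjusted p under 0.05, and 1 H2 probe set was higher and 1 lower. The share of all probe sets called was not counted for the fit with a block, so these counts have no background beside them.

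Most interferon genes nevertheless had a positive difference, whereas H2 genes were split evenly. The log2 fold change was above 0 in 45 of 64 interferon probe sets (70.3%), with a median of 0.175, quartiles of -0.10 and 0.30 and a range from -0.50 (Irf2bp2) to 0.79 (Ifitm2). It was above 0 in 20 of 39 H2 probe sets (51.3%), with a median of 0.045, quartiles of -0.17 and 0.22 and a range from -0.65 (H2-M10.5) to 0.48 (H2-M5). Over all probe sets 49.3% were positive and the median was -0.005. The class medians thus lay 0.13 apart. This gap was 0.002 without MYTHO-KD muscle D, 0.082 without scrmb muscle B, 0.047 without scrmb muscle C and 0.02 among the upper 50% of all probe sets by signal. The SD over the 4 animals of the within-animal difference between the class medians was 0.15. It describes the spread of single animals and is not an error of the gap.

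**Figure D1:**
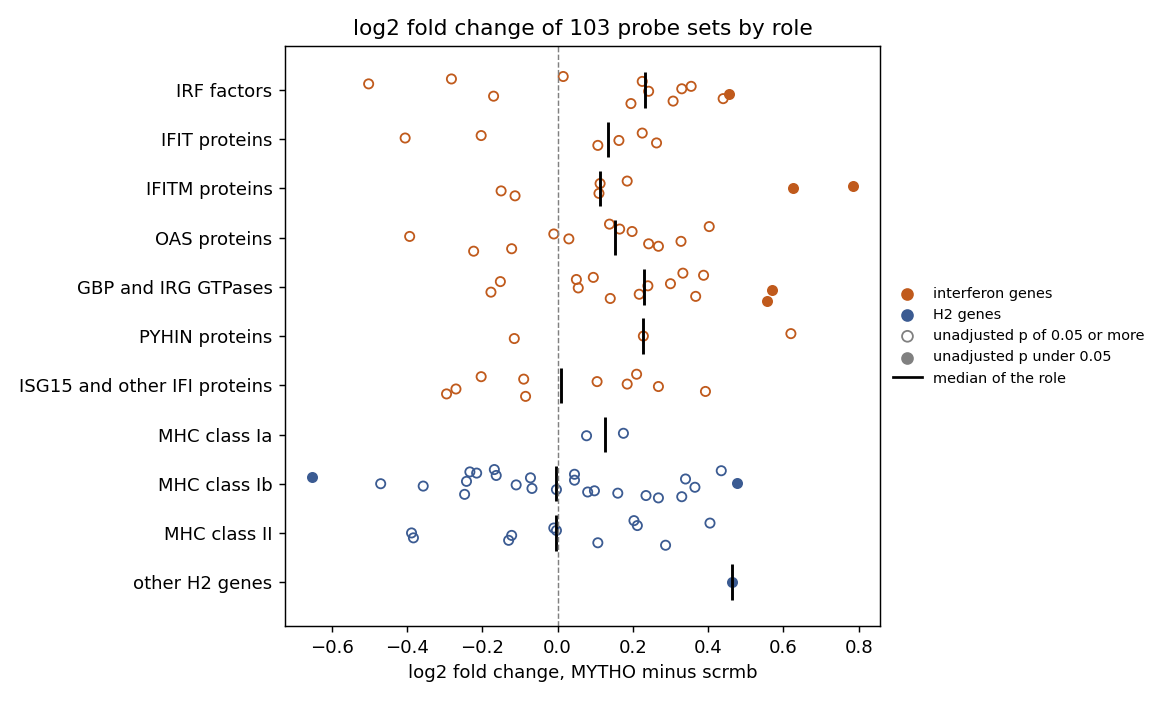
Log2 fold change (MYTHO-KD minus scrmb, x axis) of the 103 probe sets by role of the gene (y axis). Each circle is a probe set, filled where the unadjusted limma p was under 0.05, and black bars mark the median of a role. The GBP and IRG row leans to the right of 0 (12 of 14 probe sets), while the medians of MHC class Ib and class II lie near 0.

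Within animals, the classes went opposite ways in animal B alone, and H2 genes had no shift beyond that of all probe sets in animal D. The median difference between the MYTHO-KD and the scrmb leg over interferon probe sets was 0.15 in animal A, 0.085 in B, 0.005 in C and 0.195 in D. Over H2 probe sets it was 0.26 in A, -0.07 in B, 0.04 in C and -0.01 in D. Over all probe sets it stayed between -0.03 and 0.01. Animal C thus had hardly any shift in either class, and the H2 shift was widest in animal A. A positive difference in all 4 animals was seen in 11 of 64 interferon and 4 of 39 H2 probe sets, and a negative one in 4 and 2. Over the whole array 8.94% of probe sets were higher in all 4 animals and 10.8% lower. Leaving out 1 array turned the sign of 17 of 64 interferon and 14 of 39 H2 probe sets, and moved the log2 fold change of 54 and 31 by over 1.5 times.

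**Figure D2:**
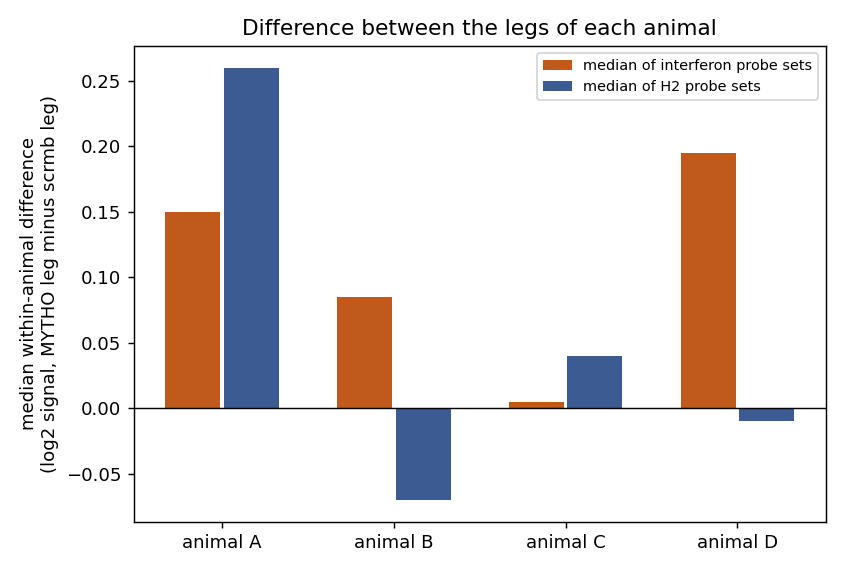
Median within-animal difference in log2 signal (MYTHO-KD leg minus scrmb leg, y axis) over the 64 interferon (orange) and 39 H2 (blue) probe sets for each of the 4 animals (x axis). Interferon bars lie at or above 0 in every animal, and the H2 bar is above the interferon bar in animals A and C.

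The class medians were also read at signals above background. Olfactory receptor (Olfr) genes, most of which are used mainly in the nose, served as a guide to background, and the 95th percentile of their 1096 probe sets was a log2 signal of 6.72. Of the interferon probe sets 30 of 64 had a mean above it, and of the H2 probe sets 10 of 39. Among these brighter probe sets the medians were close: 0.202 for interferon (24 of 30 positive) and 0.189 for H2 (9 of 10 positive), beside 0.02 for all 10023 probe sets above that level (53.1% positive). None of the 12 OAS probe sets lay above it, so that differences among OAS genes were read at the level of background.

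**Figure D3:**
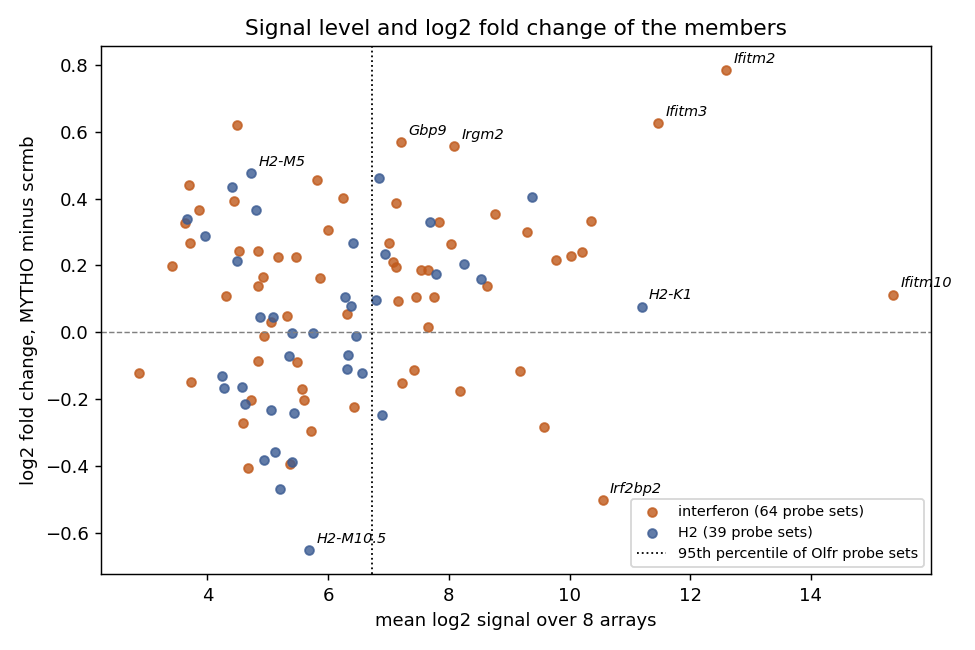
Mean log2 signal over 8 arrays (x axis) against log2 fold change (MYTHO-KD minus scrmb, y axis) of the 64 interferon (orange) and 39 H2 (blue) probe sets. The dotted line marks the 95th percentile of Olfr probe sets (6.72). To its right 24 of 30 interferon and 9 of 10 H2 probe sets lie above 0, and H2-M10.5 and H2-M5 lie to its left.

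The IFITM proteins, which sit in membranes and hinder the entry of enveloped viruses, held the members with the greatest positive differences, Ifitm2 and Ifitm3. Ifitm2 read 12.78, 12.36, 11.64 and 12.05 in scrmb A to D and 13.02, 13.38, 13.12 and 12.45 in MYTHO-KD. It was higher in the MYTHO-KD leg of all 4 animals, although MYTHO-KD D lay below scrmb A. The log2 fold change was 0.79 (SE 0.27, 95% interval 0.20 to 1.37, limma adjusted p = 0.266), or 1.72-fold. Ifitm3 read 11.33, 11.42, 10.97 and 10.91 in scrmb and 12.44, 11.60, 11.40 and 11.69 in MYTHO-KD. Again all 4 animals were higher, and MYTHO-KD C at 11.40 fell just under scrmb B at 11.42. The log2 fold change was 0.63 (SE 0.24, limma adjusted p = 0.322), and 0.41 without MYTHO-KD muscle A. The other members of the family differed by 0.19 (Ifitm1), 0.11 (Ifitm6), -0.15 (Ifitm5) and -0.11 (Ifitm7), none with an unadjusted p under 0.05. The last 3 turned in direction on leaving out 1 array (-0.05 without scrmb D, 0.06 without MYTHO-KD A and 0.13 without scrmb C). Ifitm1 was 0.12 without scrmb C. Ifitm10, on a probe set that also names the lysosomal protease Ctsd, differed by 0.11 (SE 0.16), with all 8 muscles between 15.17 and 15.54. Its difference was 0.07 without scrmb C and 0.19 without scrmb D.

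**Figure D4:**
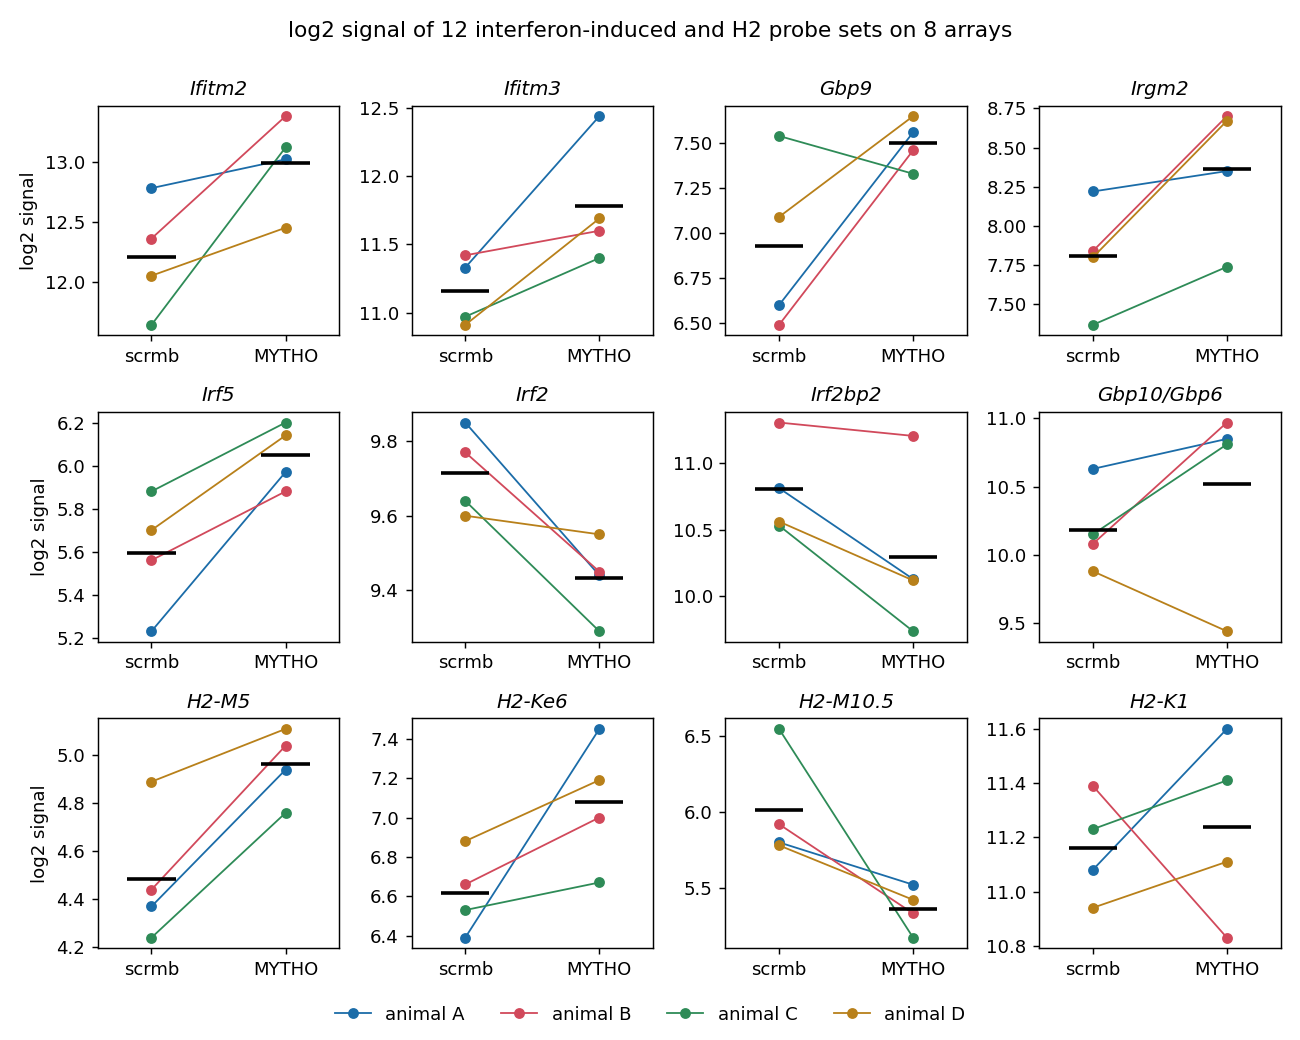
Log2 signal (y axis, a scale of its own in each panel) of 12 probe sets in scrmb and MYTHO-KD muscles (x axis). Lines join the 2 legs of an animal and black bars are group means (n = 4). Lines of Ifitm2, Ifitm3, Irgm2, Irf5, H2-M5 and H2-Ke6 rise in all 4 animals, those of Irf2, Irf2bp2 and H2-M10.5 go down in all 4, and Gbp10/Gbp6 goes down in animal D alone.

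Guanylate-binding proteins (GBP) and immunity-related GTPases (IRG) attack the vacuoles of intracellular microbes and are classic targets of interferon gamma. Of their 14 probe sets 12 had a positive difference, with a median of 0.229, and 2 were higher at an unadjusted p under 0.05, where 49.3% of all probe sets were positive and 4.81% higher at that threshold. Gbp9 read 6.60, 6.49, 7.54 and 7.09 in scrmb and 7.56, 7.46, 7.33 and 7.65 in MYTHO-KD, where the difference in animal C ran the other way. Its log2 fold change was 0.57 (SE 0.24, limma adjusted p = 0.354). Irgm2, which regulates the other IRG proteins, read 8.22, 7.84, 7.37 and 7.80 in scrmb and 8.35, 8.70, 7.74 and 8.67 in MYTHO-KD. All 4 animals were higher, but MYTHO-KD C lay under 3 of the scrmb muscles. Its log2 fold change was 0.56 (SE 0.25, limma adjusted p = 0.395). The probe set shared by Gbp10 and Gbp6 read 10.63, 10.08, 10.15 and 9.88 in scrmb and 10.85, 10.97, 10.81 and 9.44 in MYTHO-KD. Animal D stood apart from the other 3 MYTHO-KD muscles; the log2 fold change of 0.33 (limma adjusted p = 0.730) became 0.69 without it and 0.18 without MYTHO-KD B. Ifi47 and Gbp3 were the members with a negative difference (-0.18 and -0.15; -0.06 without scrmb A and without scrmb C), neither with an unadjusted p under 0.05.

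Interferon regulatory factors (IRF) are transcription factors that induce interferons or carry out the response to them. The name rule also took in Irf2bp1, Irf2bp2 and Irf2bpl, which are relatives of an IRF2-binding protein and neither IRFs nor known interferon targets. Irf5, a factor of macrophages and dendritic cells, read 5.23, 5.56, 5.88 and 5.70 in scrmb and 5.97, 5.88, 6.20 and 6.14 in MYTHO-KD, higher in all 4 animals, with MYTHO-KD B level with scrmb C at 5.88. The log2 fold change was 0.46 (SE 0.19, limma adjusted p = 0.357), at a signal below the Olfr level. Irf2, known to oppose Irf1 at ISRE sites, was one of the few members whose groups did not overlap, with 9.85, 9.77, 9.64 and 9.60 in scrmb and 9.44, 9.45, 9.29 and 9.55 in MYTHO-KD. The difference was small, -0.28 (SE 0.16, limma adjusted p = 0.516). Irf2bp2, a corepressor that binds Irf2, read 10.81, 11.30, 10.53 and 10.56 in scrmb and 10.13, 11.20, 9.74 and 10.12 in MYTHO-KD. It was lower in all 4 animals, while MYTHO-KD B lay above 3 scrmb muscles, just under the highest. Its log2 fold change of -0.50 had a limma adjusted p of 0.533, and an unadjusted p of 0.0293 in the limma fit with the animal as a block (adjusted p = 0.336). It ranged from -0.80 without MYTHO-KD B to -0.32 without MYTHO-KD C, and was -0.34 without scrmb B. Irf1, the factor most directly induced by interferon gamma, differed by 0.015 (-0.25 without scrmb B and 0.19 without scrmb A), Irf9 by 0.20 (0.02 without scrmb B) and Irf7 by 0.44 (limma unadjusted p = 0.0887), the last at a signal below the Olfr level and at 0.25 without MYTHO-KD D.

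The IFIT proteins, which bind foreign RNA and block its translation, and ISG15, a ubiquitin-like modifier, are among the genes most strongly induced by type I interferon in other settings. Here Ifit3 read 7.96, 8.07, 7.48 and 8.10 in scrmb and 8.03, 8.12, 7.70 and 8.81 in MYTHO-KD. All 4 animals were higher, in A and B by under 0.1, and the groups overlapped. The log2 fold change was 0.26 (SE 0.25, limma adjusted p = 0.724), but 0.05 without MYTHO-KD D, 0.12 without scrmb C and 0.42 without MYTHO-KD C. Ifit3b was also higher in all 4 animals, by 0.11 on average (-0.08 without scrmb C and 0.33 without MYTHO-KD C), Ifit1bl2 differed by -0.41 (SE 0.32; -0.22 without scrmb A and -0.67 without scrmb B), Ifit1 by 0.23 (0.05 without scrmb B and 0.53 without MYTHO-KD B) and Ifit2 by 0.16 (-0.05 without MYTHO-KD B). Isg15 read 4.30, 4.63, 4.59 and 3.44 in scrmb and 4.45, 4.67, 4.53 and 4.88 in MYTHO-KD, so that its log2 fold change of 0.39 (limma adjusted p = 0.580) came mostly from scrmb D and was 0.13 without it. The mean signals of Isg15, Ifit1, Ifit2 and Ifit1bl2 were below the Olfr level.

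The remaining interferon genes gave no call. The OAS proteins, which make the messenger that activates RNase L, ranged from -0.39 (Oas1f; -0.15 without scrmb C) to 0.40 (Oas1b; 0.14 without scrmb A), with a median of 0.151. Oasl2, the OAS member with the highest signal, differed by -0.22 (SE 0.20, limma adjusted p = 0.710), and by -0.10 without MYTHO-KD A and -0.35 without MYTHO-KD D. Of the PYHIN proteins, which bind DNA, Ifi203 differed by 0.23 (0.10 without scrmb D and 0.44 without scrmb A) and Ifi204 by -0.12 (-0.003 without scrmb C and -0.28 without scrmb A). The PYHIN probe set shared by Ifi202b and Ifi205 read 4.34, 3.56, 4.60 and 4.20 in scrmb and 4.75, 4.19, 4.78 and 5.46 in MYTHO-KD. All 4 animals were higher, with a log2 fold change of 0.62 (SE 0.29, limma adjusted p = 0.408; unadjusted p = 0.0516, and 0.0197 in the limma fit with the animal as a block). It was 0.40 without MYTHO-KD D and 0.42 without scrmb B, and its signals were below the Olfr level. Ifi35, higher in all 4 animals, differed by 0.19 (SE 0.19; 0.09 without MYTHO-KD D and 0.32 without scrmb D), and the exonuclease gene Isg20, lower in all 4, by -0.30 (SE 0.17).

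Among the genes with a promoter sequence, the medians with and without an ISRE were close. The 21 interferon probe sets with the element had a median log2 fold change of 0.165 with 17 positive and 3 at an unadjusted p under 0.05. The 27 without it had a median of 0.113 with 17 positive and 1 under 0.05. Over the whole array 49.3% of probe sets were positive and 4.81% were higher at that threshold. Ifitm2, Ifitm3 and Irgm2, whose elements are printed above, were the 3.

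Classical MHC class I genes had small differences with intervals on both sides of 0. H2-K1 read 11.08, 11.39, 11.23 and 10.94 in scrmb and 11.60, 10.83, 11.41 and 11.11 in MYTHO-KD. The groups overlapped throughout, with animal B in the opposite direction, and the log2 fold change was 0.08 (SE 0.21, 95% interval -0.37 to 0.53, limma adjusted p = 0.917). Without MYTHO-KD muscle A it was -0.04. The probe set of H2-D1 and H2-L read 7.76, 7.77, 7.41 and 7.86 in scrmb and 8.17, 8.13, 7.66 and 7.54 in MYTHO-KD. A, B and C were higher and D lower, for a log2 fold change of 0.18 (SE 0.20, 95% interval -0.27 to 0.62, limma adjusted p = 0.782). It was 0.08 without MYTHO-KD A or scrmb C, 0.09 without MYTHO-KD B and 0.29 without MYTHO-KD D. Either interval contains both 0 and a 1.3-fold rise, so a small change in class I was not detectable with 4 animals.

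MHC class Ib, the non-classical class I genes, had a median of -0.002 over 25 probe sets. Only 5 of these had a mean above the Olfr level, and among them 4 were positive with a median of 0.16. H2-M10.5, of a family known from vomeronasal neurons, read 5.80, 5.92, 6.55 and 5.78 in scrmb and 5.52, 5.33, 5.17 and 5.42 in MYTHO-KD. The groups did not overlap, and the log2 fold change was -0.65 (SE 0.21, limma adjusted p = 0.235), but all 8 signals were below the Olfr level. H2-M5 read 4.37, 4.44, 4.24 and 4.89 in scrmb and 4.94, 5.04, 4.76 and 5.11 in MYTHO-KD. It was higher in all 4 animals, with a log2 fold change of 0.48 (SE 0.19, limma adjusted p = 0.336), also below the Olfr level. The class Ib gene with the highest signal, H2-T10, differed by 0.16 (SE 0.18; 0.08 without MYTHO-KD A). The pair with an ISRE, H2-T22 (on a probe set with H2-T9) and H2-T23, differed by -0.25 and 0.24. H2-T22 was -0.11 without scrmb B and -0.39 without MYTHO-KD D. H2-T23 was lower in the MYTHO-KD leg of 3 of 4 animals, and its difference was -0.05 without scrmb A, which read 5.97.

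MHC class II likewise had a median of -0.002 over 11 probe sets, of which only H2-Ab1 and H2-Aa had a mean above the Olfr level, both with a positive difference. H2-Ab1, the beta chain of I-A, read 8.96, 9.05, 9.13 and 9.57 in scrmb and 9.68, 9.54, 9.74 and 9.37 in MYTHO-KD. A, B and C were higher and D was lower. The log2 fold change was 0.41 (SE 0.19, 95% interval -0.01 to 0.82, limma adjusted p = 0.415). Its partner, the alpha chain H2-Aa, differed by 0.20 (0.07 without MYTHO-KD A), with A and C higher and B and D lower. H2-Eb1 differed by -0.12 (0.18 without MYTHO-KD D) and H2-Ea-ps by -0.39, the latter a pseudogene in this strain.

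One H2 symbol is not an MHC gene. H2-Ke6 (Hsd17b8), a mitochondrial enzyme gene that lies in the H2 region, read 6.39, 6.66, 6.53 and 6.88 in scrmb and 7.45, 7.00, 6.67 and 7.19 in MYTHO-KD. It was higher in all 4 animals, most in A, with a log2 fold change of 0.46 (SE 0.21, limma adjusted p = 0.389; unadjusted p = 0.0446, and 0.0545 with the animal as a block). Of the 2 H2 probe sets that were higher at an unadjusted p under 0.05 this is one, and H2-M5 the other.

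Other genes of the pathway also gave no call after adjustment. The array-wide shares above (4.81% higher and 7.58% lower at an unadjusted p under 0.05, 2.59% and 3.87% without overlap) are the background for these counts, which are too small to set apart from it. Of 7 interferon ligand genes none lay above the Olfr level, 0 were higher and 1 was lower at an unadjusted p under 0.05. This was Ifng, with 5.76, 5.98, 6.06 and 6.04 in scrmb and 5.54, 5.67, 5.60 and 5.52 in MYTHO-KD, without overlap (-0.38, SE 0.16, limma adjusted p = 0.372). Of 13 receptor and signalling genes, 11 of them above the Olfr level, 0 were higher and 0 lower. Of 16 sensor genes, 4 of them above the Olfr level, 1 was higher. It was Ticam1, the adaptor of TLR3, with 6.03, 6.12, 6.04 and 6.15 in scrmb and 6.43, 7.00, 6.72 and 6.53 in MYTHO-KD. The groups did not overlap (0.59, SE 0.18, limma adjusted p = 0.217), but the mean signal of Ticam1 was below the Olfr level. Of 21 further interferon-stimulated genes, 8 of them above the Olfr level, 12 had a positive difference, with a median of 0.065. Among them 2 were higher, Rsad2 and Cmpk2. Uba7, which encodes the activating enzyme of ISG15, read 5.64 to 6.25 in scrmb and 6.27 to 6.68 in MYTHO-KD and so did not overlap either. Dtx3l, at -0.42 (limma adjusted p = 0.450), was lower in all 4 animals. Rsad2 (viperin) read 5.47, 5.45, 5.57 and 5.39 in scrmb and 6.32, 6.05, 5.82 and 5.64 in MYTHO-KD, again without overlap (0.49, SE 0.19, limma adjusted p = 0.320). Cmpk2 differed by 0.42 (limma adjusted p = 0.389). The mean signals of Rsad2, Cmpk2 and Uba7 were below the Olfr level too. Of 18 genes of antigen processing 0 were higher and 0 lower, with B2m, the light chain of class I, at 0.06 (SE 0.25), Nlrc5 at 0.21, Ciita at -0.14 and Cd74 at 0.27 (SE 0.34). None of these 75 genes passed an adjusted p of 0.05.

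Markers of other cells in the muscle were read on the same arrays. In bulk tissue, fewer cells of a type and less RNA per cell cannot be told apart. The mean log2 signal of the interferon probe sets was 6.63 to 6.70 in scrmb and 6.73 to 6.82 in MYTHO-KD muscles, while H2 means overlapped (5.89 to 6.01 and 5.89 to 6.03). Endothelial marker means also lay higher in every MYTHO-KD muscle than in any scrmb muscle. How often the means of other gene lists separate in this way was not counted. The background for the counts that follow is 4.81% of all probe sets higher at an unadjusted p under 0.05. All 4 endothelial markers (Pecam1, Cdh5, Kdr and Tek) were above the Olfr level, and all had a positive difference, 2 with an unadjusted p under 0.05 (Tek, 0.86, limma adjusted p = 0.213, and Pecam1, 0.45, limma adjusted p = 0.366). Their mean was 10.27 to 10.86 in scrmb and 11.05 to 11.28 in MYTHO-KD. All 8 slow fibre genes had positive differences, 7 of them with an unadjusted p under 0.05 and none with an adjusted p under 0.05, with means of 11.61 to 13.70 in scrmb and 11.68 to 14.88 in MYTHO-KD, where D was the low muscle and scrmb A the high one. Whether endothelial or slow fibre content had a part in the interferon differences was not tested.

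No marker in the leukocyte lists had an unadjusted p under 0.05, and the list means overlapped between groups. The macrophage list (7 markers, 3 above the Olfr level) had means of 7.19 to 7.52 in scrmb and 7.18 to 7.58 in MYTHO-KD, and T and NK cell markers (9, of which 1 was above) 5.32 to 5.49 and 5.18 to 5.50. B cell, dendritic cell and neutrophil lists held no marker above the Olfr level. Of the 7 skeletal muscle markers 6 were at or near the ceiling of the scale on all 8 arrays and cannot show a difference between groups. The other, Ckm, differed by -0.04 (SE 0.16, limma adjusted p = 0.958).

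**Figure D5:**
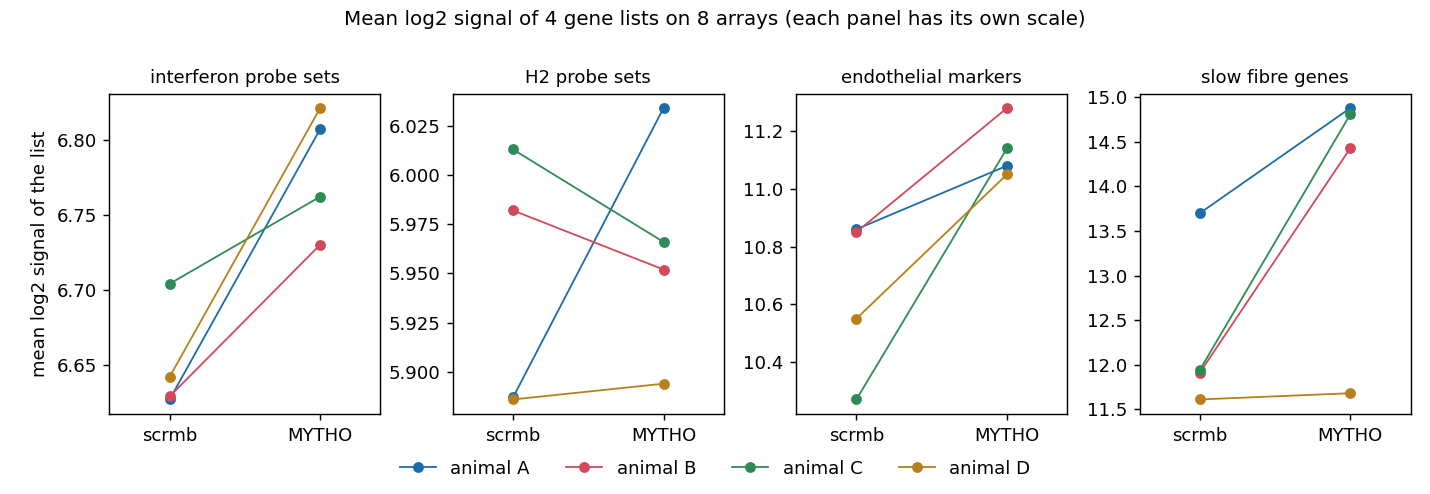
Mean log2 signal (y axis, a scale of its own in each panel) of the 64 interferon probe sets, the 39 H2 probe sets, 4 endothelial markers and 8 slow fibre genes in scrmb and MYTHO-KD muscles (x axis), with lines joining the 2 legs of an animal. Interferon and endothelial means do not overlap between groups (6.63 to 6.70 against 6.73 to 6.82, and 10.27 to 10.86 against 11.05 to 11.28), H2 means do, and in the slow fibre panel animal D stays low in both legs.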

How the data were processed

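Total RNA from 8 GAS muscles was hybridised to Affymetrix Clariom S mouse arrays. The authors processed them with default settings of the Transcriptome Analysis Console 4.0.1 and deposited log2 signals, 1 value per probe set and array; the labels name RMA and mm10. Their columns of group averages, fold changes and p-values were not used. Per-array medians ran from 6.39 to 6.47, signals from 2.38 to 19.93, and 18 probe sets were saturated on all arrays. The number of arrays limits the precision. Probe sets that name several genes (836) were kept.

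The main test was limma 3.58.1 in R 4.3.3 (lmFit and eBayes, two-sided, without a block); the methods name an ebayes ANOVA and mention no pairing term. P-values were adjusted over all 22206 probe sets, and the fit was checked on simulated data. The methods' threshold was a 2-fold change with p under 0.05. Legs of 1 animal carry the same animal number in the column names, which pairs the samples; the correlation of their deviations from the group means was 0.003, -0.001, 0.135 and 0.087 for A to D. Since columns carry animal numbers and the labels carry other replicate numbers, columns were assigned to a group only. Alternatives were quantile normalization, median centring, filters on dim probe sets, trend and robust eBayes, the animal as a fixed or random block, 1 probe set per gene, no saturated probe sets and leaving out each array.

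Members, pathway lists and markers were chosen with earlier results of these data known, so no p is given for a list. Genes named in the text were every member with an unadjusted p under 0.05 or without overlap, the members with the highest signal and the largest change in each role, and pathway genes with an unadjusted p under 0.05; the others named in passing were chosen after their values were seen. Promoter sequences came from RefSeq, GRCm38.p6.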

Additional observations from a re-analysis of the deposited data

Results flagged for a closer look

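In 62 groups of 4 muscles examined (groups of named genes and of the targeted gene among them), 2 held a muscle apart from the rest by Dixon's criterion. Chance alone flags about 1 in 20. In the probe set of Gbp10 and Gbp6, MYTHO-KD muscle D read 9.44 against 10.81 to 10.97 in the other 3, a gap of 0.895 of the range of the group. For D230025D16Rik, MYTHO-KD muscle C read 8.80 against 8.08 to 8.20, a gap of 0.833 of the range, so the knockdown was least deep in that animal.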

How the results depend on the processing

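No interferon or H2 gene passed an adjusted p of 0.05 under any alternative run, nor one of 0.1 in the limma test as reported. For the 28 genes named by rule, 460 of 461 values under 17 settings kept their direction and their side of the threshold. The exception was H2-K1, at -0.043 without MYTHO-KD muscle A (range over arrays left out -0.043 to 0.213). Most of these genes were named for a low p, no overlap or a large change, so a kept direction is little support. Other genes named in the text did turn on leaving out 1 array, among them Irf1, Ifit2, Ifit3b, H2-T23 and H2-Eb1. Over all members 17 of 64 interferon and 14 of 39 H2 probe sets turned. The replicate block on animal changed no adjusted call; at unadjusted p under 0.05 it gave 1 lower interferon probe set in place of 0 and 1 higher H2 probe set in place of 2. At that threshold 1 H2 probe set was higher with trend and robust eBayes, 1 among the upper 75% by signal and 4 after median centring, and 0 were lower among the upper 50%. Leaving out single arrays gave 3 to 5 higher interferon probe sets (3 without MYTHO-KD A, scrmb A or scrmb B) and 0 to 1 lower. It gave 0 to 3 higher H2 probe sets (0 without MYTHO-KD B or scrmb C) and 1 to 4 lower (4 without scrmb D). A fold minimum of 1.5 with unadjusted p under 0.05 was met by 3 members, Ifitm2, Ifitm3 and H2-M10.5. The share of all probe sets called was not counted under any of these settings, so the counts have no background beside them. The median of interferon probe sets ran from 0.115 to 0.18 and that of H2 probe sets from 0.001 to 0.12 over arrays left out. The cause of these shifts was not tested. Most H2 and all OAS probe sets were no brighter than background genes, which limits what these arrays can show of them.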
